A study of Bos taurus with 30 samples.

Results

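The genes described here encode subunits and activators of the proteasome and enzymes that attach ubiquitin, measured in bovine lymphocytes. They were taken by symbol: every named gene on the array whose symbol begins with PSMA to PSMG followed by a number, or with UBE2. The rule took 27 of the 3269 named genes, and all 27 passed the filter on dim genes, which left 2402 genes to test. The members were 4 alpha and 7 beta subunits of the 20S core, 4 ATPase and 4 non-ATPase subunits of the 19S regulator, the 2 genes of the PA28 activator, 5 ubiquitin-conjugating (E2) enzymes and PSME3IP1, which encodes a protein that binds the activator subunit PSME3 and is not itself a subunit. UBE2K and PSME3IP1 stood under the older names HIP2 and NIP30 in the platform annotation and were recognised by accession. PSMB7, PSMB9, PSME3 and the remaining subunits and E2 enzymes were not analysed here.

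The lymphocytes came from 15 cattle (Bos taurus). The synthetic glucocorticoid prednisolone was dosed orally in 8 of them at 30 mg per head each day for 35 days, and 7 were controls. Every animal was sampled at T1 and T2, so that the 30 single-colour arrays form 4 groups: 8 prednisolone animals at T2, 7 control animals at T2, 8 prednisolone animals at T1 and 7 control animals at T1. The position of T1 and T2 relative to the dosing is not given in the sources used here, and the labels name a slaughterhouse as the place of collection and give neither strain nor age. Each array held the RNA of 1 animal, so that the replicates are separate animals.

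The proteasome is the main protease for intracellular proteins tagged with ubiquitin. Its barrel-shaped 20S core has outer rings of alpha subunits, which gate the entrance, and inner rings of beta subunits, some of which carry the proteolytic sites; the 19S regulator recognises tagged proteins, removes the ubiquitin, unfolds the protein with a ring of ATPases and feeds it into the core. Ubiquitin reaches its targets through an activating enzyme (E1), an E2 enzyme and a ligase (E3). Inducible subunits, which interferon can raise, take the place of the catalytic beta subunits in the immunoproteasome. With the PA28 activator, the immunoproteasome is known for making peptides for presentation on MHC class I. The roles named below for single subunits are known from human and yeast proteins.

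Values are log2 intensities after scaling of each array, and a difference of 1 is a factor of 2. Between 34506 and 38801 of the 44407 features carried a value on an array, and every member had one on all 30 arrays. Member genes had 2 features each, apart from PSME1 with 4, and the features averaged for a gene differed by a median of 0.029 to 0.127 log2 units. The signals of different genes come from different probes and are not compared with each other. On the first principal component (21.9% of the variance over 2181 genes), animals 28 and 32 at T1 lay at -21.9 and -22.2, apart from the other prednisolone animals at T1 (-9.06 to -3.30). The prednisolone animals at T2 lay at 8.81 to 13.8 and the control arrays at -5.33 to 3.97. The counts of members past the adjusted threshold were therefore also made without both animals.

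Of the cell markers, 7 of 10 listed T cell genes were tested, and their summed intensity was 62014 to 101174 in prednisolone animals and 63484 to 83433 in control animals at T2, and 55999 to 79728 in prednisolone animals and 40785 to 84044 in control animals at T1. The ranges of the T cell sums overlapped between the groups at each time. CD2 was higher by 0.32 in prednisolone animals at T2 (adjusted p = 0.0367), and its difference at T1 was 0.35 (adjusted p = 0.118). At T2 against T1, CD2, CD3G and CD8A rose in prednisolone animals by 0.36, 0.34 and 0.45 (adjusted p = 0.0162, 0.0186 and 0.0444). In control animals CD2 differed by 0.40 over time (adjusted p = 0.298), CD3G by 0.06 and CD8A by -0.05. CD3D, CD3E, CD247 and CD28 passed in no comparison, and no T cell gene passed for the interaction of treatment and time. Of 8 listed monocyte genes only CD14 and ITGAM were tested. Their summed intensity was 2081 to 7777 in prednisolone animals and 4184 to 14011 in control animals at T2, and 10303 to 50008 in prednisolone animals and 4296 to 10872 in control animals at T1, so that the ranges overlapped at both times. CD14, the lipopolysaccharide co-receptor of monocytes, was lower by 1.11 in prednisolone animals at T2 (adjusted p = 0.0328), and its difference at T1 was 1.44 (adjusted p = 0.0556). Between the samplings in prednisolone animals CD14 fell by 2.33 (adjusted p = 0.000159), while ITGAM rose by 0.46 (adjusted p = 0.0344). The interaction of treatment and time for CD14 was -2.55 (adjusted p = 0.000815). The treatment differences of ITGAM were 0.22 at T2 and -0.02 at T1 and did not pass. Of 4 natural killer genes tested (6 listed), NCR1 was higher by 0.70 in prednisolone animals at T2 (adjusted p = 0.0408). KLRD1, GZMB and PRF1 differed by -0.55, -0.14 and -0.12 there and did not pass. In bulk lymphocytes, fewer cells of a type and less RNA per cell cannot be told apart. These marker changes run beside the treatment differences, the time differences in prednisolone animals and the interactions given below, and their part in the results was not tested. No tested marker of B cells (1 of 7 listed), neutrophils (3 of 10), erythroid cells (3 of 8) or platelets (2 of 6) passed in these comparisons.

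At T2 the genes of the proteasome differed between prednisolone and control animals in both directions. The core subunits PSMA2 and PSMA3, the ATPase PSMC2 and the E2 enzyme UBE2B were lower in prednisolone animals. The lid subunits PSMD7 and PSMD13, the immunoproteasome subunits PSMB8 and PSMB10 and the E2 enzyme UBE2D1 were higher. Together these are 9 of 27 members (33.3%, with 5 higher and 4 lower) at an adjusted p under 0.05. Of all 2402 genes tested, 18.6% passed (11.0% higher and 7.58% lower). An unadjusted p under 0.05 was reached by 11 members, and by 29.9% of all genes. Without animals 28 and 32, 8 of the 9 passed, against 13.7% of all genes. The groups did not overlap for 4 members (PSMA2, PSMC2, UBE2B and UBE2D1), which was the case for 4.08% of all genes. The median difference over the members was -0.01, beside 0.04 over all genes. The treatment differences were modest in size, at most 0.65 log2 units, and 18 members did not pass.

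**Figure D1:**
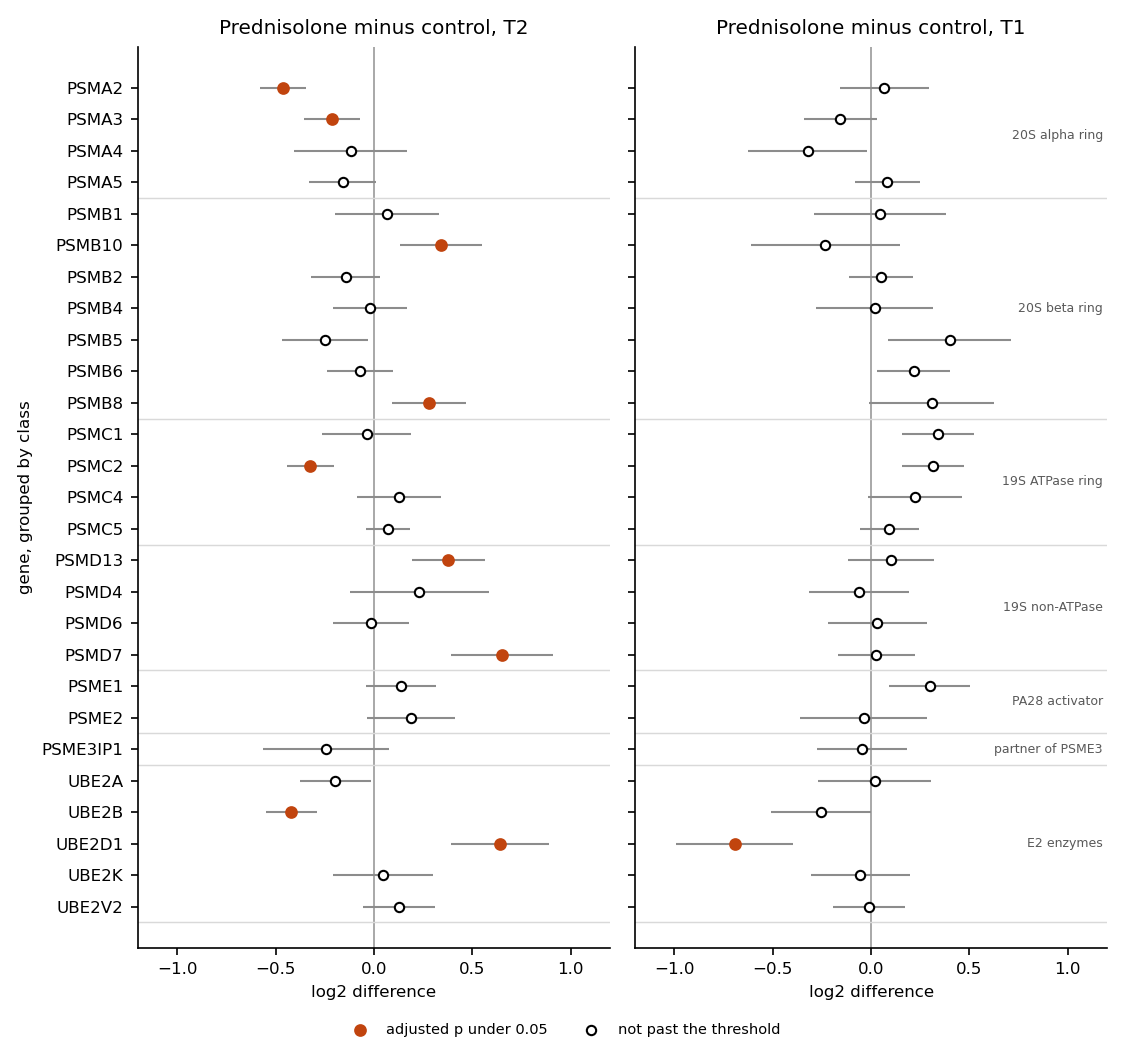
Prednisolone minus control at T2 (left panel) and T1 (right panel) for the 27 members; the horizontal axis is the log2 difference, bars are 95% confidence intervals and filled points have an adjusted p under 0.05. At T2 filled points lie on both sides of 0, with PSMD7 and UBE2D1 farthest to the right and PSMA2 farthest to the left; at T1 only UBE2D1 is filled, on the left.

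Among the alpha subunits, which form the outer rings of the core, 2 of 4 were lower in prednisolone animals at T2. PSMA2 lay at 9.95 to 10.05 in prednisolone animals (median 10.01) and at 10.31 to 10.57 in control animals (median 10.47) at T2, and at T1 at 10.27 to 10.84 in prednisolone animals (median 10.62) and 10.30 to 10.98 in control animals (median 10.46). All 8 prednisolone animals at T2 were below every other array of the set, and they were also the tightest group of any member (SD 0.036). PSMA2 was lower by 0.46 at T2 (SE 0.055, adjusted p = 9.56e-05), and its difference at T1 was 0.07 (SE 0.107, adjusted p = 0.743). PSMA3 lay at 11.51 to 11.76 in prednisolone animals (median 11.61), against 11.59 to 11.98 in control animals (median 11.84), at T2. It was lower by 0.21 (SE 0.067, adjusted p = 0.0367), with all 8 prednisolone animals under the control mean, and control animal 24 alone lay among them. PSMA3 differed by -0.16 at T1 (SE 0.086, adjusted p = 0.308), and its interaction of treatment and time was -0.06 (adjusted p = 0.744). Between the samplings it differed by -0.02 in prednisolone animals (adjusted p = 0.88). The adjusted p of PSMA3 at T2 was 0.119 without animals 28 and 32 and 0.0597 without control animal 22. PSMA4 and PSMA5 differed by -0.12 and -0.16 at T2 and did not pass.

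Some of the beta subunits carry the proteolytic sites. Both inducible catalytic subunits among the named genes were higher in prednisolone animals at T2, and the 5 others did not pass. PSMB10, the trypsin-like subunit of the immunoproteasome, lay at 14.49 to 14.75 in prednisolone animals (median 14.64) and at 13.78 to 14.53 in control animals (median 14.39) at T2. It was higher by 0.34 in prednisolone animals (SE 0.099, adjusted p = 0.0261). PSMB8, the chymotrypsin-like subunit of the immunoproteasome, lay at 14.58 to 15.13 in prednisolone animals (median 14.82) and at 14.36 to 14.72 in control animals (median 14.56). It was higher by 0.28 in prednisolone animals (SE 0.088, adjusted p = 0.0362). All 8 prednisolone animals were above the control mean for both genes, and the ranges overlapped at their edges. Neither call held when all 30 arrays were fitted together, with the animal as a block (adjusted p = 0.118 for PSMB10 and 0.148 for PSMB8) or without it (0.119 and 0.129). The PSMB8 call was also lost without animal 22 (0.0646), without animal 24 (0.0671), on the unscaled deposited values (0.0635) and with quantile normalization of complete features (0.103). PSMB5, the constitutive subunit that PSMB8 replaces, differed in the other direction at T2, by -0.25 (SE 0.104, adjusted p = 0.113). PSMB6, the constitutive caspase-like subunit, differed by -0.07 (SE 0.079, adjusted p = 0.586). At T1 PSMB8 and PSMB5 were both higher in prednisolone animals, by 0.31 (SE 0.149, adjusted p = 0.242) and 0.40 (SE 0.147, adjusted p = 0.136), without passing. The PSMB8 estimate was thus similar at both times. PSMB10 differed by -0.23 at T1 (SE 0.178, adjusted p = 0.463). PSMB1, PSMB2 and PSMB4, which have no proteolytic site, differed by 0.07, -0.14 and -0.02 at T2. PSMB1 was the dimmest member, with a mean log2 intensity of 4.22 over all arrays, and had the widest spread of any member in prednisolone animals at T1 (SD 0.42).

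The ATPase ring of the regulator unfolds the substrate, and PSMC2 was lower in prednisolone animals at T2 while the other 3 did not pass. PSMC2 lay at 12.78 to 12.93 in prednisolone animals (median 12.86) and at 13.07 to 13.32 in control animals (median 13.18) at T2, without overlap. At T1 the order was the opposite: 13.21 to 13.56 in prednisolone animals (median 13.39), against 13.00 to 13.21 in control animals (median 13.05). The lowest prednisolone animal and the highest control animal nearly coincided there. PSMC2 was lower by 0.32 at T2 (SE 0.056, adjusted p = 0.00137), and its T1 difference of 0.32 (SE 0.074) had an adjusted p of 0.0556. PSMC1, PSMC4 and PSMC5 differed by -0.04, 0.13 and 0.07 at T2.

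The non-ATPase subunits recognise and deubiquitinate the substrate, and 2 of 4 were higher in prednisolone animals at T2. PSMD7, the partner of the deubiquitinase subunit in the lid of the regulator, lay at 10.62 to 11.50 in prednisolone animals (median 11.16) and at 10.28 to 10.70 in control animals (median 10.48) at T2. Of the prednisolone animals only animal 31 was within the control range. PSMD7 was higher by 0.65 (SE 0.122, adjusted p = 0.00213), the largest treatment difference of any member at T2, and differed by 0.03 at T1 (SE 0.092). PSMD13, another lid subunit, lay at 13.78 to 14.15 in prednisolone animals (median 14.06) and at 13.41 to 13.97 in control animals (median 13.64). It was higher by 0.38 in prednisolone animals (SE 0.088, adjusted p = 0.00784). The ubiquitin receptor PSMD4 and the lid subunit PSMD6 differed by 0.23 and -0.01 and did not pass. In PSMD4 animal 25 (12.13) stood below the other prednisolone animals and animal 18 (11.80) below the other control animals at T2.

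PA28 is a ring that caps the core and opens it for peptide release. Neither of its genes passed in any comparison. PSME1 averaged 14.25 ± 0.19 in prednisolone animals (SD, n = 8) and 14.11 ± 0.07 in control animals (SD, n = 7) at T2, and 14.32 ± 0.19 in prednisolone animals and 14.02 ± 0.15 in control animals at T1. Its differences were 0.14 at T2 (adjusted p = 0.296) and 0.30 at T1 (adjusted p = 0.106). These are the values of its 2 brighter features. The 2 dimmer features gave another pattern, with 8.77 ± 0.24 in prednisolone animals and 8.90 ± 0.26 in control animals at T2, and 9.48 ± 0.39 in prednisolone animals and 8.85 ± 0.39 in control animals at T1. With all 4 features averaged, PSME1 fell by 0.39 at T2 against T1 in prednisolone animals (SE 0.095, adjusted p = 0.00428), which the brighter features alone did not show (-0.07, adjusted p = 0.613), and its interaction of treatment and time was -0.47 (adjusted p = 0.0238), against -0.16 (adjusted p = 0.398) for the brighter features. PSME2, the other PA28 subunit, differed by 0.19 at T2 (SE 0.104, adjusted p = 0.246) and by -0.04 at T1. PSME3IP1 differed by -0.24 at T2 (SE 0.150, adjusted p = 0.303) with a wide spread in control animals, 11.02 to 12.22.

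The E2 enzymes gave both the largest rise over time and a fall. UBE2D1, which works with many ligases, lay at 8.35 to 8.82 in prednisolone animals (median 8.61) and at 7.53 to 8.32 in control animals (median 7.88) at T2. At T1 it lay at 6.80 to 7.61 in prednisolone animals (median 7.18) and at 7.51 to 8.16 in control animals (median 8.01). The prednisolone animals were thus above all control animals at T2, and at T1 all but animal 26 were below all of them. In prednisolone animals UBE2D1 was higher by 0.64 at T2 (SE 0.118, adjusted p = 0.00189) and lower by 0.69 at T1 (SE 0.140, adjusted p = 0.0478). Each time 8 of 8 prednisolone animals were on that side of the control mean. UBE2B, the RAD6-type enzyme that modifies histone H2B and the replication clamp, lay at 9.62 to 9.84 in prednisolone animals (median 9.65) and at 9.91 to 10.25 in control animals (median 10.09) at T2, with no overlap. It was lower by 0.42 in prednisolone animals (SE 0.062, adjusted p = 0.000549). At T1 UBE2B differed by -0.255 (SE 0.119, adjusted p = 0.227), with 8 of 8 prednisolone animals below the control mean. Its interaction of treatment and time was -0.165 (adjusted p = 0.415). The close paralogue UBE2A differed by -0.20 at T2 (SE 0.085, adjusted p = 0.132), with all 8 prednisolone animals below the control mean. Whether the probes of UBE2A and UBE2B cross-hybridise was not tested. UBE2K, which builds the chains that target proteins to the proteasome, differed by 0.04 and UBE2V2, an inactive E2 variant that assists another E2, by 0.13.

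**Figure D2:**
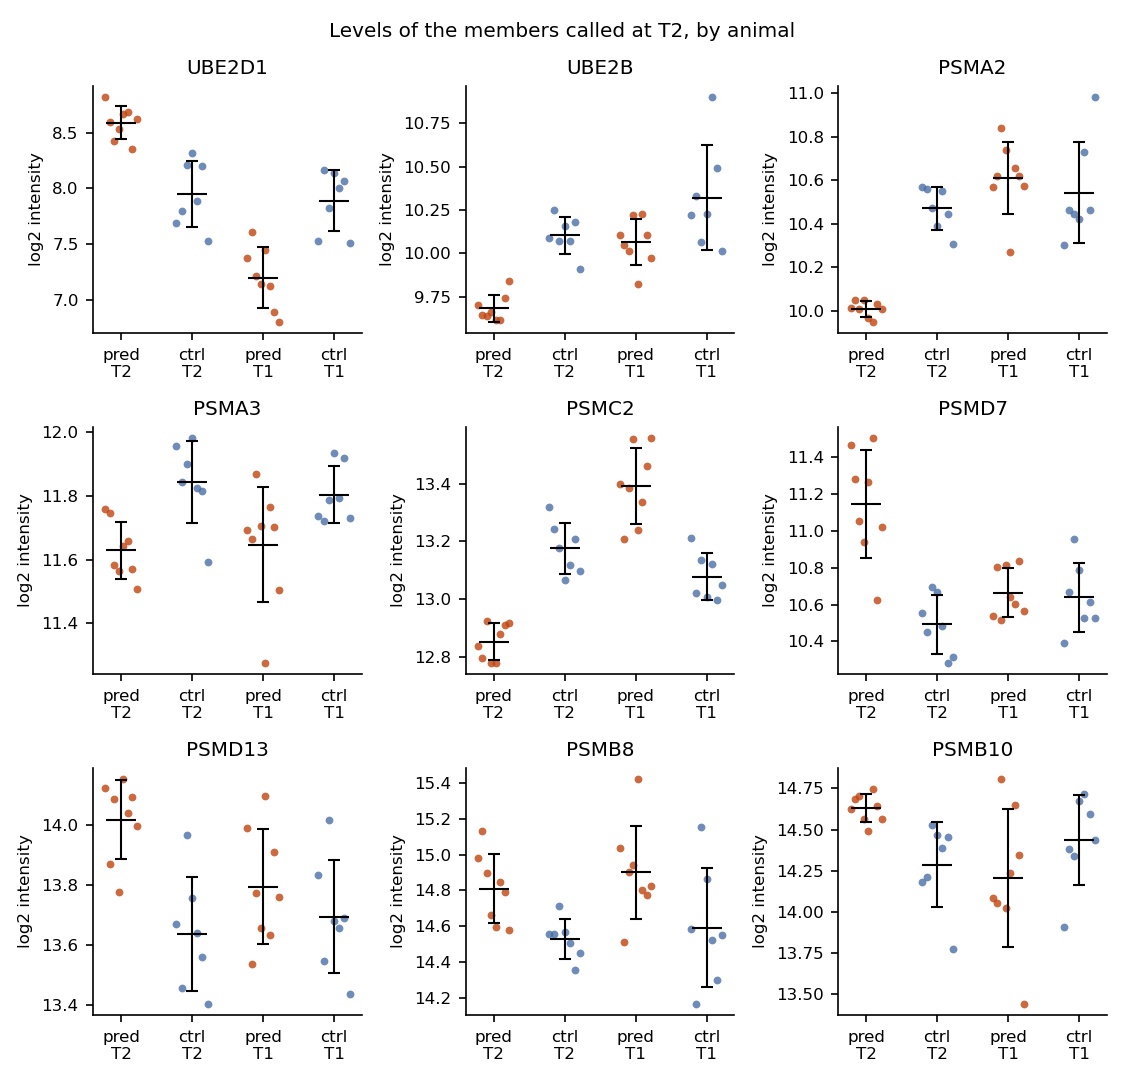
Log2 intensity of the 9 members that passed at T2, each in a panel of its own scale, with 1 point per animal and the mean ± SD as bars; within a panel the groups are prednisolone T2, control T2, prednisolone T1 and control T1. In UBE2D1, UBE2B, PSMA2 and PSMC2 the prednisolone animals at T2 do not overlap the control animals at T2. In UBE2D1, PSMC2, PSMB10 and PSMA2 the prednisolone mean lies on the opposite side of the control mean at T1, by only 0.07 for PSMA2. The T1 ranges overlap in each of these.

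At T1 only UBE2D1 passed, 1 of 27 members (3.7%), against 0.333% of all genes tested; 8 members had an unadjusted p under 0.05, where 21.7% of all genes did. The UBE2D1 call was close to the threshold. Its adjusted p was 0.151 without animals 28 and 32 (difference -0.62), when no gene of the 2402 passed and 345 had an unadjusted p under 0.05, and 0.101 without control animal 22. It was 0.0515 to 0.0733 with a higher floor, on the unscaled deposited values, without the filter on dim genes and with the brightest feature alone. Next by p came PSMC2, PSMC1 (0.34, SE 0.086, adjusted p = 0.0603), PSME1 and PSMB5 (0.40, SE 0.147, adjusted p = 0.136), all of them higher in prednisolone animals and none of them past the threshold. When all 30 arrays were fitted together, these 4 passed as well, with the animal as a block (adjusted p = 0.00484 for PSMC2, 0.0306 for PSMC1, 0.0412 for PSME1 and 0.0433 for PSMB5) and without it (0.00449, 0.025, 0.0316 and 0.0451). All 4 ATPase genes had T1 differences above 0, from 0.09 to 0.34. The remaining members with an unadjusted p under 0.05 did not pass. PSMB6 differed by 0.22 (adjusted p = 0.163), PSMA4 by -0.32 (adjusted p = 0.199) and UBE2B by -0.255 (adjusted p = 0.227). In PSMB5 control animal 22 lay at 9.76, far below the other control animals at T1 (10.65 to 11.12), and without that animal the PSMB5 difference was 0.26 (adjusted p = 0.149).

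Between the samplings, the prednisolone animals changed in 11 members (4 up, 7 down; 40.7%), where 38.1% of all genes did (21.9% higher, 16.1% lower). The share among the members is near that of all genes, and 14 members had an unadjusted p under 0.05, where 46.9% of all genes did. The prednisolone arrays at T2 enter both this comparison and the treatment difference at T2, so the 2 sets of values are not independent. UBE2D1 rose by 1.39 (SE 0.110, adjusted p = 1.89e-06), a 2.62-fold change, and every animal rose, by 0.99 to 1.82. PSMA2 fell by 0.60 (SE 0.068, adjusted p = 9.93e-06) and PSMC2 by 0.54 (SE 0.062, adjusted p = 1.1e-05), each in 8 of 8 animals. For these 3 members the arrays of T2 and T1 did not overlap, as for 9.49% of all genes.

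The other 8 time changes in prednisolone animals were smaller. UBE2B fell by 0.38 and PSMD7 rose by 0.48, in 8 and 7 of 8 animals (adjusted p = 0.000272 and 0.0035). The catalytic subunits PSMB5 and PSMB6 fell by 0.29 and 0.21 (adjusted p = 0.00514 and 0.0132), the alpha subunit PSMA5 by 0.25 (0.00551) and the ATPase PSMC1 by 0.30 (0.0081), while PSMB10 rose by 0.42 (0.0304). Without animals 28 and 32, these 5 calls were lost, at adjusted p-values of 0.0573 to 0.114, and UBE2A passed (-0.28, adjusted p = 0.0439), so that 7 members passed, against 26.8% of all genes. In PSMB10 animal 32 had the lowest value of all arrays at T1, 13.44. With the animal as a block, 12 members passed, the additional one being PSMD13 (0.22, adjusted p = 0.0186, against 0.0516 without the block). The share of all genes passing with the block is not given here. On all 30 arrays with no block the PSMB5 call was lost (0.0643). PSMB8 differed by -0.09 between the samplings (adjusted p = 0.555).

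UBE2K rose by 0.47 in prednisolone animals (SE 0.116, adjusted p = 0.0045) and differed by 0.37 in control animals (SE 0.123, adjusted p = 0.35). It lay at 6.18 to 6.74 in prednisolone animals (median 6.37) and at 5.77 to 6.57 in control animals (median 6.47) at T2, and at T1 at 5.46 to 6.30 in prednisolone animals (median 5.96) and 5.79 to 6.26 in control animals (median 5.99). It was higher at T2 in 8 of 8 prednisolone animals and 6 of 7 control animals, and its change did not differ detectably between them (interaction 0.10, 95% interval -0.25 to 0.45, adjusted p = 0.737).

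In control animals no member passed between the samplings by limma, and no gene of the 2402 did (0.0%); 1 member, UBE2K, and 243 genes (10.1%) had an unadjusted p under 0.05. PSMB5 was next, higher at T2 in 7 of 7 control animals by 0.36 (SE 0.172, adjusted p = 0.499), or by 0.26 without animal 22. UBE2B, PSMA4 and PSMB2 differed by -0.22, -0.23 and 0.13, and did not pass. For UBE2D1, PSMC2, PSMA2 and PSMD7 the control differences were 0.06, 0.10, -0.07 and -0.15.

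**Figure D3:**
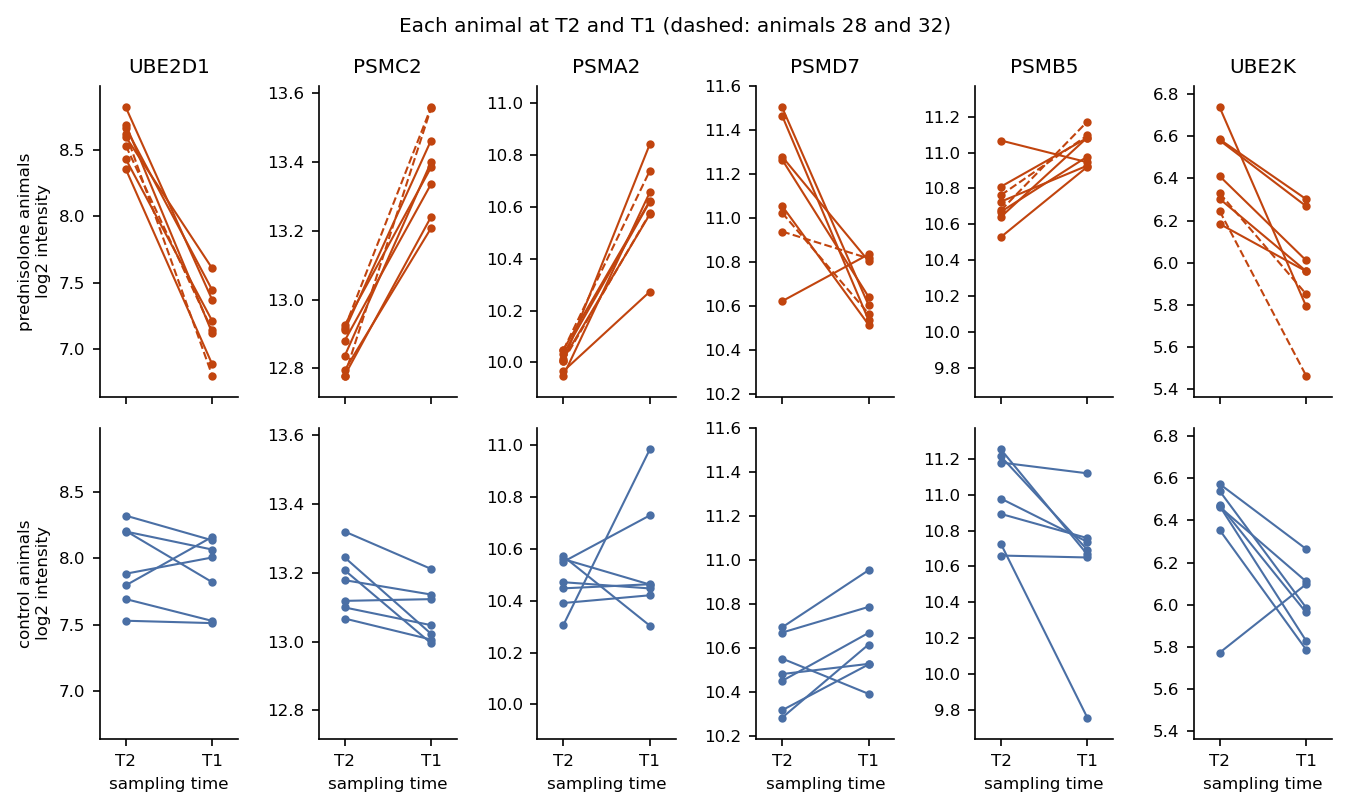
Log2 intensity of 6 members at T2 and T1, with 1 line per animal, prednisolone animals in the upper row and control animals in the lower row on the same vertical scale for each gene; dashed lines are animals 28 and 32. Every prednisolone animal is higher at T2 for UBE2D1 and UBE2K and lower at T2 for PSMC2 and PSMA2, while control lines for PSMB5 all lie higher at T2.

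The interaction asks whether the treatment difference at T2 is unlike that at T1. It passed in 6 of 27 members (22.2%; 2 up, 4 down), against 18.2% of all genes (9.37% higher and 8.78% lower). UBE2D1 had 1.33 (SE 0.184, adjusted p = 3.82e-05) and PSMC2 had -0.64 (SE 0.084, adjusted p = 2.63e-05). The estimated treatment differences at T2 and T1 had opposite signs in 5 of the 6 members, all but PSMD7, and of these only UBE2D1 passed at both times. The interaction is the T2 difference minus the T1 difference, so choosing members by it favours opposite signs. PSMD7 (0.63, SE 0.152, adjusted p = 0.00569) and PSMA2 (-0.53, SE 0.116, adjusted p = 0.00247) passed at T2 and differed by 0.03 and 0.07 at T1. PSMB5, with treatment differences of -0.25 at T2 and 0.40 at T1, had -0.65 (SE 0.181, adjusted p = 0.0136), and -0.55 (adjusted p = 0.00702) without animal 22; with the brightest feature alone its adjusted p was 0.0574. PSMC1 had -0.38 (SE 0.135) at an adjusted p of 0.049. Without animals 28 and 32 the adjusted p was 0.0646 for PSMB5 and 0.199 for PSMC1, and 4 members passed, against 9.33% of all genes; the PSMC1 call was also lost without animal 22 (0.0753) and without animal 24 (0.0632). It was lost as well with quantile normalization over all features (0.101), without the filter on dim genes (0.0614), with the brightest feature alone (0.0788) and with the mean of all features (0.0502). With the animal as a block PSMB10 (0.57, adjusted p = 0.0173) and PSMB6 (-0.29, adjusted p = 0.0328) passed too. For PSMB8 the interaction was -0.03 (SE 0.174, adjusted p = 0.936). The monocyte gene CD14 had an interaction of -2.55 beside these, and its part in them was not tested.

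Over the 21 proteasome genes together, the mean deviation of an array from the genes' overall means stayed within 0.17 log2 units of 0. It was -0.07 to 0.15 in prednisolone animals (median 0.01) and -0.17 to 0.07 in control animals (median -0.03) at T2, and -0.07 to 0.15 in prednisolone animals (median 0.06) and -0.11 to 0.07 in control animals (median -0.08) at T1. The ranges of the groups overlapped at both times. Of the 27 members, 14 passed in at least 1 comparison and 13 in none. The same count over all genes is not given here, and 38.1% of all genes passed over time in prednisolone animals alone. Among the members that passed in none were PSMC4, PSMC5, PSMD4, PSMD6, PSMB2, PSMB4 and UBE2V2. The spread of the members between animals of a group was smaller than that of all genes, with a median SD of 0.149 in prednisolone and 0.183 in control animals at T2, where all genes had 0.214 and 0.248. The members were not compared with genes of like intensity. Single animals recurred at the ends of the ranges. Animal 24 was the lowest control animal at T2 for 13 of 27 members, and animal 26 the highest prednisolone animal at T2 for 11.

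**Figure D4:**
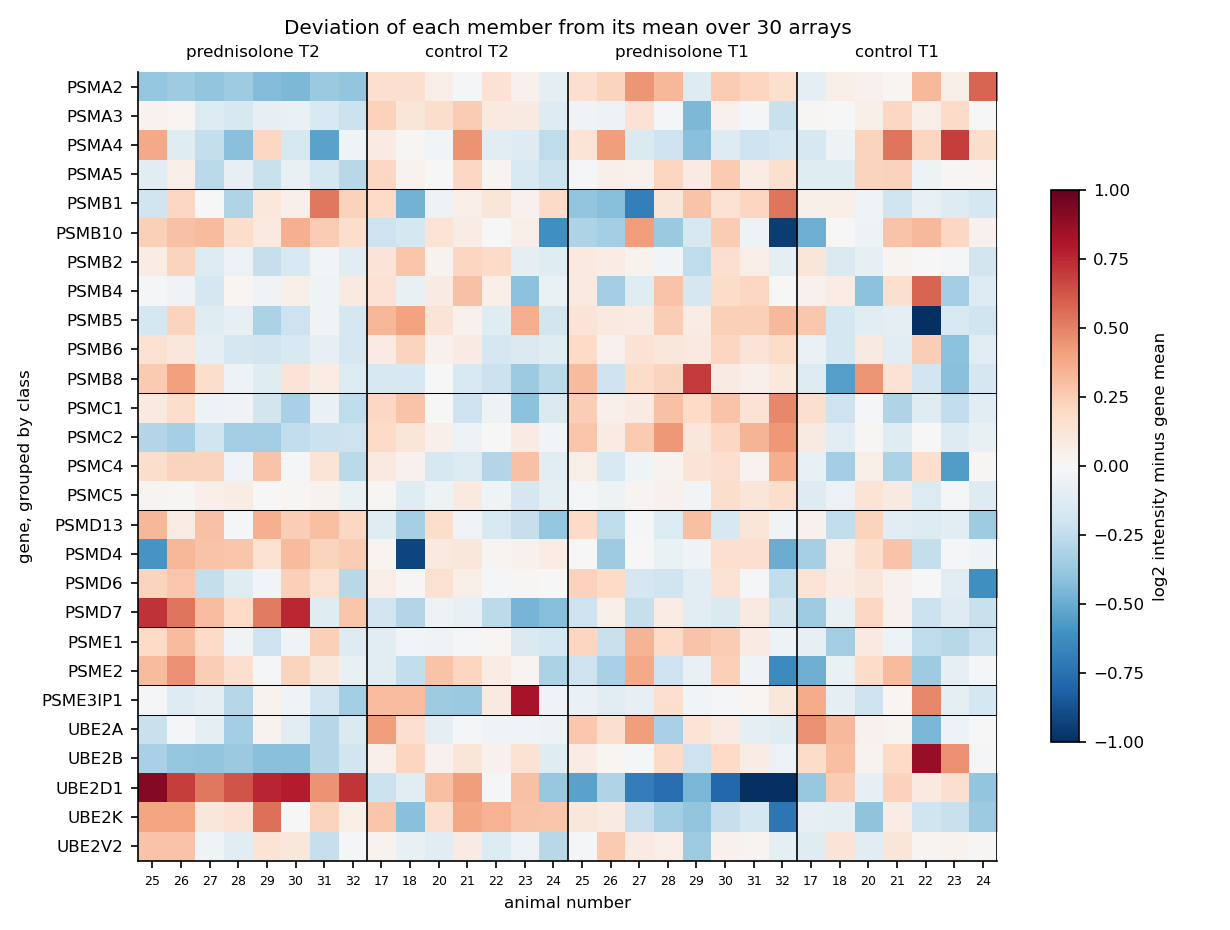
Deviation of each of the 27 members (rows, grouped by class) from its mean over the 30 arrays (columns, 1 per animal, numbered), in log2 units from -1 in blue to 1 in red, with larger deviations drawn at the end of the scale. UBE2D1 is red in all prednisolone animals at T2 and blue in all of them at T1, PSMA2, PSMC2 and UBE2B are blue in all of them at T2, and most other rows show no group-wide colour.

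Few other genes of the ubiquitin system were tested under a name: 4 of 17 listed ubiquitin and ubiquitin-like proteins, 1 of 10 E1 enzymes, 5 of 53 ligases and cullin parts, 4 of 44 deubiquitinases, 2 of 27 shuttling and accessory proteins, and 5 of 12 further genes of antigen processing. At T2 only IRF1, the interferon-induced transcription factor that activates immunoproteasome genes, passed. It was higher by 0.82 in prednisolone animals (SE 0.148, adjusted p = 0.00174), with 8 of 8 above the control mean. The other 4 antigen processing genes did not pass, among them B2M, the light chain of MHC class I (0.08), and TAP2, of the peptide transporter (0.07). None of the listed genes passed at T1. Between the samplings in prednisolone animals, USP18, which removes the ubiquitin-like protein ISG15 from its targets, fell by 1.38 (SE 0.245, adjusted p = 0.000385) in 8 of 8 animals. The ligase RNF114 fell by 0.29 (adjusted p = 0.00492), the shuttling protein UBQLN1 by 0.21 (adjusted p = 0.00949), and IRF1 rose by 0.64 (adjusted p = 0.0146). The E1-like enzyme of ISG15, UBA7, differed by 0.41 at T2 (SE 0.166, adjusted p = 0.0997), and ISG15 itself by -0.25 with a wide error (SE 0.637). The interaction passed for RNF114 (-0.44, adjusted p = 0.0245), USP18 (-1.18, adjusted p = 0.0291) and the autophagy-linked GABARAPL2 (0.53, adjusted p = 0.0281).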

How the data were processed

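Lymphocyte RNA of 15 cattle was hybridised to 30 single-colour Agilent bovine arrays. The authors deposited linear intensities; per the series text, Feature Extraction 9.5 joined a pair of scans per array, detrended the signal and subtracted background, and the submitters' processing notes name R 2.11.1. How arrays were normalized, and why 17.2% of the cells are empty, is not given in the sources used here.

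Arrays were scaled by their 75th percentile over the 23055 complete features, values under a floor of 1.82 (percentile 1) were set to it, and log2 was taken. Features were named through accessions, current symbols or synonyms, with RefSeq tables used for names only. Features within 0.25 log2 units of a gene's brightest were averaged, and genes in the lowest 25% by mean or with under 4 values in a group were left out. Differences were fitted with limma 3.58.1 (lmFit, eBayes; R 4.3.3), two-sided, on the groups compared and with all 30 arrays for the interaction, with Benjamini-Hochberg adjustment over all 2402 genes. A treatment difference is prednisolone minus control and a time difference T2 minus T1. The fit was tested on simulated data. Counts of animals give those beyond the control mean in the direction named or, over time, those whose own difference has that sign. Tables and plots used Python 3.11.15, numpy 2.4.6, pandas 2.3.3 and matplotlib 3.10.9.

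The members, related lists and markers were chosen with earlier results of these data known. Members past an adjusted p of 0.05 were named, or those of smallest p up to 5 where fewer than 5 passed, with the inducible and constitutive core subunits, PA28, the dimmest member and members whose features disagree; the remaining members were added to account for all. The same animal gave T1 and T2: deviations from the group means correlated at 0.219 to 0.698 between an animal's arrays (median 0.465), so the animal was fitted as a block in an alternative. No label names a slide or hybridisation batch, and none was modelled. Precision is limited by the number of arrays.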

Additional observations from a re-analysis of the deposited data

Results flagged for a closer look

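The treatment difference at T2 differed from that at T1, by the interaction of treatment and time over all 30 arrays, for UBE2D1 (1.33, adjusted p = 3.82e-05), PSMC2 (-0.64, adjusted p = 2.63e-05), PSMA2 (-0.53, adjusted p = 0.00247), PSMD7 (0.63, adjusted p = 0.00569), PSMB5 (-0.65, adjusted p = 0.0136) and PSMC1 (-0.38, adjusted p = 0.049). The estimated treatment difference had opposite signs at T2 and at T1 for 5 of these 6, all but PSMD7. Of the 5, only UBE2D1 passed at both times, and PSMA2 at T1 (0.07) and PSMC1 at T2 (-0.04) were near 0. Choosing members by the interaction favours opposite signs, and the share among all genes it called is not given here.

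A single animal stood far from its group in 7 of the 108 groups of values checked (27 members in 4 groups), and chance alone gives about 1 in 20. Control animal 18 at T2 accounted for 3 of them. PSMD4 was 11.80 there, with the other control animals at 12.75 to 12.84, UBE2K was 5.77, with the others at 6.35 to 6.57, and PSMB1 was 3.75, with the others at 4.16 to 4.41. PSMD4 was also low in prednisolone animal 25 at T2, at 12.13, where the other prednisolone animals lay at 12.88 to 13.05. Control animal 24 had 11.59 for PSMA3 at T2, where the other control animals lay at 11.82 to 11.98, and 12.13 for PSMD6 at T1, where the others lay at 12.64 to 12.87. PSMB5 was 9.76 in control animal 22 at T1, where the others lay at 10.65 to 11.12.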

How the results depend on the processing

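For the 36 member results named by rule, 462 comparisons with another setting left the call as it was in 420, lost it in 32, gained it in 10 and reversed the direction in 0. A reversal was counted only where the result passed in the main setting or in the other one. Named results that did not pass in the main setting could only keep or gain a call. Among these are all those over time in control animals, which passed in no setting and count as unchanged. At T1, where 1 member passed, 0 passed on the values as deposited, without the filter on dim genes, with the brightest feature alone, with a floor of 16, without animals 28 and 32 and without animal 22; 3 passed with array weights, and 5 with all 30 arrays fitted, both with the animal as a replicate block and with no replicate block. Between the samplings in prednisolone animals, 11 members passed, and 7 without animals 28 and 32. With the animal as a replicate block the members passing were 7 at T2, 12 over time in prednisolone animals, 0 over time in control animals and 8 for the interaction. At T1 and T2 the fit on all 30 arrays with no replicate block changed the calls of the same members (7 passed at T2), so the block itself changed none there. Over time in prednisolone animals and for the interaction, the calls the block changed are given with the results. Over all genes, the T1 count of 8 was 232 with the block, 246 on all 30 arrays without it, 72 with array weights, 5 with the brightest feature, 2 without the filter, 1 without animal 22 and 0 without animals 28 and 32. The control time count of 0 reached 9, with quantile normalization over all features. The interaction count of 436 was 637 with the block and 224 without animals 28 and 32. Counts over all genes with the block are not given for T2 or over time, so the member counts there have no share beside them. Quantile normalization over all features gave the median gene a difference of -0.09 at T1 (main 0.03), -0.12 over time in control animals (main 0.04) and 0.16 for the interaction (main 0.00); it called 109 genes at T1, 14 of them higher (main 3 of 8), and 454 for the interaction, 360 of them higher (main 225 of 436). No named member result that passed in the main setting or in that one changed sign. The settings without animal 22 and without animal 24 were chosen after seeing the data. The cause of these changes was not tested. Signal over background could not be judged, as the intensities were deposited after background subtraction.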
